A study of Mus musculus with 2 samples.

Results

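The AP-1 factor genes described here are *Fos*, *Fosb* and *Fosl2* of the Fos family and *Jun*, *Junb* and *Jund* of the Jun family, which are 6 of the 28009 genes listed in the count tables of both tissues. They were chosen by name, with earlier results of these data known. Each of the 6 had UMIs (unique molecular identifiers, which count each captured RNA molecule once) in both libraries. The cells were IL-10-producing (eGFP+) CD4+ T cells, Foxp3+ cells included, sorted from the spleen or the small intestine of mice with an eGFP reporter for IL-10 and an mRFP reporter for Foxp3. By the methods of the study, the mice received anti-CD3, an antibody against the T cell receptor complex that activates T cells and expands IL-10-producing cells, on alternate days and were killed hours after the last injection. All cells of both tissues share the reporters and this treatment, and 1 library of 10X single cell RNA was made per tissue with no untreated library among them. How many mice went into a library is not given in the sources used here, and ages are given only as a range for the mice of the whole study. The eGFP reporter marks cells in which the *Il10* gene has been active, and no library of eGFP-negative T cells is among those used here.

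After filters on quality and on cell cycle phase, 1278 cells of the small intestine were kept, with a median of 3696 UMIs per cell, and 1469 cells of the spleen, with a median of 5408. The summed UMIs of the kept cells were 5033783 and 9161899, and no barcode was shared between the libraries. The T cell label held, with *Cd3d*, *Cd3e*, *Cd3g* and *Cd4* present in both tissues at a summed level of 4549.9 counts per 1000000 UMIs (CPM) for the intestinal and 3662 for the splenic cells. CD8 genes stood at 353 and 13.8 CPM, and 204 intestinal and 105 splenic cells held a *Cd8a* or *Cd8b1* UMI. In the splenic cells these were UMIs of *Cd8b1* only. Markers of other cells were low, with sums of 14.1 and 6.88 CPM for B or plasma cells, 30.4 and 7.31 for dendritic cells, 22.1 and 32.5 for epithelium, 206 and 177 for 6 myeloid genes (mostly *Cst3* and *Cd68*), 0 and 0.327 for red blood cells and 0 and 0.764 for stroma. Levels are in CPM over all UMIs of a group of cells, and brackets hold 95% intervals (exact Poisson for levels, exact binomial for shares and ratios) that cover counting error only. No p-value was computed, since each tissue has 1 library and cells of a library are no replicates of it.

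AP-1 is a dimer of basic leucine zipper proteins that binds DNA. Fos family proteins bind DNA stably only when paired with a Jun family protein, whereas Jun proteins can also pair with each other. In T cells the dimer acts downstream of the T cell receptor and co-stimulation, where MAP kinases induce and phosphorylate its subunits, and it binds together with NFAT at cytokine genes. *Fos*, *Fosb*, *Jun* and *Junb* are immediate early genes, transcribed within minutes of a stimulus without new protein, and *Jund* is known as the member present at rest. The same genes are known to be induced when tissue is digested with warm enzymes before cells are sorted. By the methods of the study, intestinal lymphocytes were released by warm incubation with EDTA and by collagenase, and no isolation of the spleen cells is described in the sources used here. The tissue and its handling can therefore not be told apart in any comparison of the libraries.

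In the GRCm38 annotation (GENCODE M21; the mm10 build of the files), *Fos* (ENSMUSG00000021250) lies on chr12:85473890-85477273 (plus strand), *Fosb* (ENSMUSG00000003545) on chr7:19302696-19310051 (minus) and *Fosl2* (ENSMUSG00000029135) on chr5:32135801-32157842 (plus), each with 4 exons in the principal transcript. *Jun* (ENSMUSG00000052684; chr4:95049034-95052222, minus), *Junb* (ENSMUSG00000052837; chr8:84974484-84978718, minus) and *Jund* (ENSMUSG00000071076; chr8:70698949-70700616, plus) have 1 exon each. The 3 Jun genes overlap a listed gene on the opposite strand. These were *Junos* over *Jun*, at 1.39 CPM in intestinal and 1.09 in splenic cells, *Prdx2* over *Junb*, at 203 and 224, and *Gm11175* over *Jund*, at 0.993 and 0.873. The strand setting of the counting is not given in the sources used here.

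Since *Fos*, *Fosb*, *Jun* and *Junb* were the immediate early members that stood higher in the small intestine, the 250 bases before their RefSeq start (GRCm38.p6) are shown, 5′ to 3′ on the strand of the gene. Capitals mark the motifs found. The windows are chr12:85473640-85473889 for *Fos* (plus), chr7:19310046-19310295 for *Fosb* (minus), chr4:95052223-95052472 for *Jun* (minus) and chr8:84978749-84978998 for *Junb* (minus).
Fos: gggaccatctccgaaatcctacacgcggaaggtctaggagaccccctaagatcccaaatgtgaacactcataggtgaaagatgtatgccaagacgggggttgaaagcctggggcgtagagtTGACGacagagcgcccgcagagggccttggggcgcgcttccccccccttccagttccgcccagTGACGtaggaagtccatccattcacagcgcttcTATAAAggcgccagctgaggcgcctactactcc
Fosb: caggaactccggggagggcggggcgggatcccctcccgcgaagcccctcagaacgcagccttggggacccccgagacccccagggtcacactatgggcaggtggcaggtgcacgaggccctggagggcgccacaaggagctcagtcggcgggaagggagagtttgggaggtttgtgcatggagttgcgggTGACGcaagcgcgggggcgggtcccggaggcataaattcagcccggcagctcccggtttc
Jun: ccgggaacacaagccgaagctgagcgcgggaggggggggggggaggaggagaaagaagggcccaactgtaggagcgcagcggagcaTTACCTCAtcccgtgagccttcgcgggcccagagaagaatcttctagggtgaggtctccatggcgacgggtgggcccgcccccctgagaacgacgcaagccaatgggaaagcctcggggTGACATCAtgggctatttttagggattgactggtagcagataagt
Junb: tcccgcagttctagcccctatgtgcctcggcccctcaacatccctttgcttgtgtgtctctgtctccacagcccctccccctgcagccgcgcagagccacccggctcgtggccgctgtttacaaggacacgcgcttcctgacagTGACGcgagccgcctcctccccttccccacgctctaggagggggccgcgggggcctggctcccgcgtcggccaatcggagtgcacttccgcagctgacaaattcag
Motifs were searched on both strands after the sequences had been seen. TGACG, the core that CREB and ATF proteins bind, occurred in the windows of *Fos* (2 matches, the nearer with its first base 66 bases before the start), *Fosb* (60 bases before) and *Junb* (106 bases before), and in 17.8% of the 32851 RefSeq windows of this length. *Jun* held TGACATCA 45 bases before its start and TTACCTCA 164 bases before it, both known as AP-1 binding variants of this promoter, which 2.93% and 0.728% of windows held. TATAAA was found 33 bases before the start of *Fos* (12.4% of windows). TGACTCA, the classical AP-1 site, and TGACGTCA, the full cyclic AMP response element, which contains TGACG, were in none of the windows of the 6 genes, against 4.46% and 1.55% of all windows. The windows of *Fosl2* and *Jund* held none of the 6 motifs. Their RefSeq starts lie apart from the GENCODE starts given above, that of *Jund* well upstream, so these windows are not those before the GENCODE starts.

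The first comparison asked how far the level of each gene differed between the tissues. All 3 Fos family genes stood higher in the small intestine. *Fos*, the partner of Jun proteins in the classical AP-1 dimer, was at 444 CPM (426 to 463) in intestinal cells and at 102 (95.9 to 109) in splenic cells, a 4.34-fold difference (4.02 to 4.69). *Fosb*, whose product also pairs with Jun proteins, was at 131 CPM (121 to 142) against 12.6 (10.4 to 15.1), 10.4-fold higher (8.56 to 12.8). *Fosl2*, which encodes Fra-2, was at 116 CPM (107 to 126) against 33.4 (29.8 to 37.4), or 3.47-fold higher. The spleen thus held *Fosb* at the edge of what its depth resolved in a cell, with 115 UMIs over 1469 cells.

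Within the Jun family the members were unlike each other. *Jun*, which encodes c-Jun, stood at 305 CPM (289.9 to 321) for intestinal and 112 (105 to 119) for splenic cells (2.72-fold). *Junb*, which in T cells also pairs with BATF, stood at 2204 CPM (2163 to 2245) against 847 (829 to 866), a 2.60-fold difference. *Jund* was at 1269 CPM (1238 to 1300.3) and 1118 (1097 to 1140.1), which is 1.13-fold. On the log2 scale, 5 of the 6 genes were at least 2-fold higher in the small intestine and none was 2-fold lower. Of the 9034 genes with at least 50 UMIs over both libraries, 10.4% were at least 2-fold higher and 13.6% at least 2-fold lower, and their median log2 ratio was -0.02. The median of the 6 genes was 1.62. Their summed level was 4469 CPM against 2226, a log2 ratio of 1.01 (0.98 to 1.03), and *Junb* and *Jund* gave most of that sum.

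The share of cells in which a gene was detected followed the same order after each cell had been thinned at random to 2000 UMIs, which left 1170 intestinal and 1446 splenic cells. *Fos* was found in 45.6% of the intestinal cells (42.7 to 48.5) and 17.5% of the splenic ones, against 61.3% and 33.4% before thinning. *Fosb* was found in 20.2% and 3.04% (30.6% and 5.72% unthinned), and *Fosl2* in 19.6% and 7.33% (33.7% and 16.7%). *Jun* was detected in 33.0% against 19.99% of cells (47.6% and 36.6% unthinned). *Junb* reached 93.5% and 76.2% (96.7% and 95.1%), and *Jund* 87.9% and 84.4% (95.9% and 97.3%). The libraries hold no cell type that should lack these genes, so the part of free RNA in these shares was not measured. *Fosl1*, the Fos family gene left out of the 6, had 3 UMIs in the intestinal and 17 in the splenic cells, or 0.596 and 1.86 CPM.

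**Figure D1:**
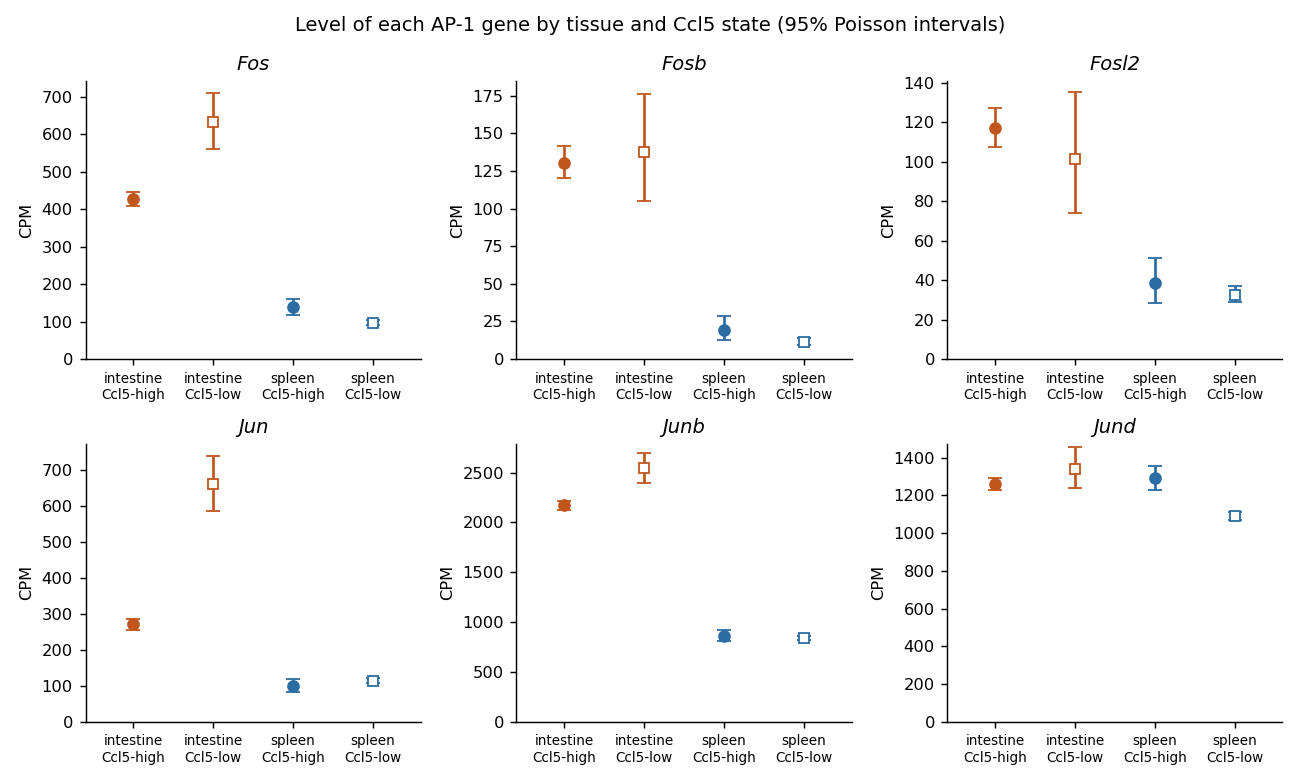
Level of each AP-1 gene in CPM (vertical axes, starting at 0) in Ccl5-high (filled circles) and Ccl5-low cells (open squares) of the small intestine (orange) and spleen (blue), with 95% Poisson intervals. The intestinal groups lie above both splenic groups for every gene but *Jund*, and *Jun* stands apart in the Ccl5-low cells of the small intestine (660.0 CPM against 271 in Ccl5-high cells), of which 98 of 100 lie in graph cluster 4.

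Intestinal cells were mostly Ccl5-high and splenic cells mostly not. *Ccl5* encodes a chemokine of cytotoxic and memory T cells, and a cell was called Ccl5-high at 10 or more *Ccl5* UMIs per 10000 of its UMIs. This held for 1178 of the intestinal cells (92.2%) and 225 of the splenic ones (15.3%), and 125 and 80 cells lay between 5 and 20. The tissues were therefore also compared within each state. Among Ccl5-high cells, *Fos* was at 426 CPM in intestinal and 138 in splenic cells (log2 ratio 1.62), *Fosb* at 131 and 19.3 (2.76), *Fosl2* at 117 and 38.6 (1.60), *Jun* at 271 and 99.6 (1.44) and *Junb* at 2171 and 865 (1.33). *Jund* was at 1262 and 1293 CPM (-0.04, -0.12 to 0.05), so that no tissue difference was detectable for it. Again 5 of 6 genes were at least 2-fold higher in the small intestine, against 9.38% of the 7188 genes compared, while 8.15% were 2-fold lower. Among Ccl5-low cells, 5 of 6 were likewise at least 2-fold higher (11.2% of 7969 genes were, and 11.5% were 2-fold lower), and the log2 ratios were 2.71 for *Fos*, 3.58 for *Fosb*, 1.64 for *Fosl2*, 2.53 for *Jun*, 1.59 for *Junb* and 0.30 for *Jund*. The ratios of *Fos*, *Jun*, *Junb* and *Jund* were thus larger in Ccl5-low than in Ccl5-high cells, beyond their counting intervals. Those of *Fosb* and *Fosl2* had intervals that overlap. The Ccl5-low cells differ in kind between the tissues, however. Of the 100 intestinal ones 98 lie in 1 graph cluster (cluster 4), with a sum of Th17 markers (genes of T cells that make IL-17) of 1615 CPM, while the splenic ones are spread over all 7 clusters with 47.0 CPM, so the Ccl5-low values compare different cells.

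Depth moved with these levels. In the 320 intestinal cells with the fewest UMIs the 6 genes summed to 5761 CPM, and in the 320 with the most to 3458, while the 368 shallowest splenic cells had 3236 and the 367 deepest 1821. *Fos* was at 657 and 314 CPM in these shallow and deep cells of the intestine and at 221 and 58.7 in those of the spleen, and *Jun* at 515 and 231 and at 232 and 58.4. In cells of like depth, with 3000 to 5000 UMIs (695 intestinal and 483 splenic cells, a choice made after seeing the data), the log2 tissue ratio was 1.65 (1.46 to 1.83) for *Fos*, 2.26 (1.84 to 2.71) for *Fosb*, 1.44 (1.10 to 1.79) for *Fosl2* and 1.11 (1.04 to 1.18) for *Junb*. For *Jun* it was 0.58 (0.41 to 0.76), under 2-fold, and for *Jund* 0.04 (-0.03 to 0.12). The differences were thus smaller at like depth for all 6 genes, and remained above 2-fold for 4 of them, with *Fosl2* and *Junb* closest to that limit. Of the 6665 genes compared in this subset, 9.53% were at least 2-fold higher in the small intestine and 7.52% lower. Depth also differed by graph cluster, so a limit on depth can change which cells are compared. Splenic clusters 2 and 1 had medians of 3820.5 and 4257 UMIs, with *Jun* at 276 and 149 CPM. Splenic cluster 4 had a median of 9538, with *Jun* at 59.8 CPM. Depth and kind of cell were not told apart here.

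**Figure D2:**
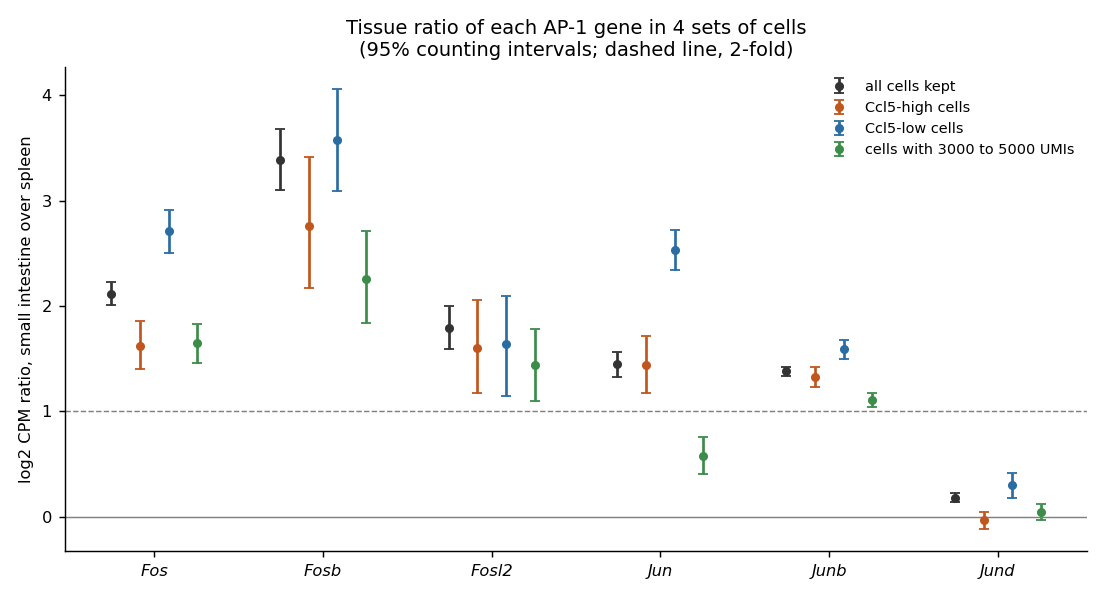
Log2 ratio of CPM, small intestine over spleen (vertical axis), for each AP-1 gene in all cells kept, in Ccl5-high cells, in Ccl5-low cells and in cells with 3000 to 5000 UMIs, with 95% counting intervals. The ratio of *Jun* runs from 0.58 at like depth to 2.53 in Ccl5-low cells, that of *Fosb* is 2.26 or more in each, and that of *Jund* lies near 0.

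The next comparison asked whether the level followed the Ccl5-high state within a tissue. In the small intestine *Jun* was the member that differed most, at 271 CPM (256 to 286) in Ccl5-high cells and 660.0 (587 to 740.1) in Ccl5-low cells, a log2 ratio of -1.29 (-1.47 to -1.10). *Fos* stood at 426 against 633 CPM (-0.57, -0.75 to -0.39) and *Junb* at 2171 against 2543 (-0.23, -0.32 to -0.14). *Fosb* (-0.07), *Fosl2* (0.21) and *Jund* (-0.09) had intervals that include 0. The median of all 6870 genes compared was -0.14 in this comparison, so relative to that shift the ratios were -1.15 for *Jun*, -0.43 for *Fos* and -0.09 for *Junb*. *Jun* was the only member at least 2-fold lower, and 6.36% of all genes were. None of the 6 was 2-fold higher (5.91% of genes). The 100 Ccl5-low cells held few cells with much of the signal, since 5 of them carried 32.7% of the *Fos* and 26.6% of the *Jun* UMIs of the group. The difference by state was not seen within a graph cluster. Cluster 4 holds 98 of the 100 Ccl5-low and 86 of the 1178 Ccl5-high cells, and within it, a comparison added after seeing the data, the order was the opposite. There *Jun* was at 842 CPM (740.2 to 953) in Ccl5-high and 669 (595 to 751) in Ccl5-low cells (log2 ratio 0.33, 0.08 to 0.58), *Fos* at 869 against 633 (0.46, 0.21 to 0.71) and *Junb* at 3082 against 2538 (0.28, 0.15 to 0.41). On average the Ccl5-high cells of cluster 4 held fewer UMIs each than its Ccl5-low cells, and depth was not matched in this comparison. The Ccl5-high cells of the other 5 clusters had 129 to 309 CPM of *Jun*. Only 6 of the 1278 intestinal cells had no *Ccl5* UMI, against 815 of the 1469 splenic cells. Whether the *Ccl5* limit parts 2 states of cells within cluster 4 was not tested. Markers of other T cells moved with the state, the Th17 sum being 42.0 CPM in the Ccl5-high and 1615 in the Ccl5-low cells of the small intestine (mostly *Il17f*, at 8.93 and 933) and the CD8 sum 387 and 4.51. Each of these sums was also highest in 1 cluster, Th17 at 1177 CPM in cluster 4 and CD8 at 2524 in cluster 6. Sums of regulatory T cell (1465 and 2115 CPM), naive or central memory (53.4 and 232) and cycling markers (153 and 410) were likewise lower in the Ccl5-high cells. That of follicular helper T cell markers was 120 and 119. The dendritic sum was 20.5 CPM in the Ccl5-high and 133 in the Ccl5-low cells (there *H2-Aa* and *H2-Ab1*, with *Itgax* at 0, against 5.45 in the Ccl5-high cells), and the B or plasma cell sum 11.1 and 45.1. The part of these cells in the result was not tested.

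In the spleen no member differed 2-fold by state, where 2.49% of the 8119 genes compared were 2-fold higher in Ccl5-high cells and 3.6% lower. *Fos* stood at 138 CPM (118 to 160.5) in Ccl5-high and 96.7 (90.0 to 104) in Ccl5-low cells, a log2 ratio of 0.51 (0.27 to 0.75). *Jund* was at 1293 against 1091 CPM (0.25, 0.17 to 0.32) and *Fosb* at 19.3 against 11.5 (0.75, 0.03 to 1.41). *Jun* (-0.19), *Junb* (0.04) and *Fosl2* (0.24) had intervals that include 0. The ratios of *Fos* and *Fosb* rest on few cells. Of the 172 *Fos* UMIs in Ccl5-high cells, 5 cells carried 28.5%, the share of thinned cells with *Fos* was 15.9% against 17.8%, and among cells with 3000 to 5000 UMIs the log2 ratio turned to -0.41 (-0.94 to 0.08). For *Fosb*, 5 cells carried 12 of the 24 UMIs, and the ratio at like depth was -0.37. *Jund*, at 0.39 (0.25 to 0.53) in the same subset, kept its direction. That subset can also differ in its clusters. In cluster 6 *Fos* was at 138 CPM (111 to 169) in Ccl5-high and 30.2 (11.1 to 65.8) in Ccl5-low cells. In cluster 1 it was at 336 (215 to 500) against 125 (107 to 146). It was also higher in clusters 3 (112 against 64.6), 4 (114 against 71.9) and 5 (120 against 50.4). It was lower in cluster 2 (98.1 against 239) and in cluster 7, with 1 Ccl5-high cell. Intervals overlapped except in clusters 6 and 1. In each of these clusters the Ccl5-high cells held fewer UMIs on average than the Ccl5-low ones, and depth was not matched.

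Graph clusters of cells, made in each tissue from variable genes without the 6 members, gave the spread of the levels within a library. The other immediate early genes, whose sum had an r of 0.53 and 0.32 with that of the 6, were not left out. *Gadd45b* and *Dusp1* are among the leading genes of intestinal cluster 3. Genes that move with the 6 could thus shape the clusters. In the small intestine, cluster 6 was lowest for all 6 genes. Its 118 cells are led by *Cd8a*, *Cd8b1*, *Cd7* and *Gzma*. It is also the deepest intestinal cluster, with a median of 4327 UMIs per cell against 3198 to 4016 in the others. There the 6 genes summed to 2256 CPM (2139 to 2379), close to the splenic mean, against 3983 to 5852 in the other 5 clusters. *Fos* was at 166 CPM (136 to 202) and *Junb* at 814 (744 to 888), while the next lowest cluster had 365 and 1843. *Jun* was at 129 CPM, and *Jund*, which varied least, at 1016 with an interval that overlaps its neighbour. *Fosl2*, at 68.5 CPM (49.4 to 92.6), overlapped cluster 4 (94.4, 73.5 to 119.5). Cells with a *Cd8a* or *Cd8b1* UMI in any cluster showed 298 CPM of *Fos* and a sum of 3144.

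Cluster 4 of the small intestine, led by *Capg*, *Emb* and *Smco4* and with 46.7% Ccl5-high cells, was highest for *Fos*, *Jun* and *Junb*. *Fos* reached 728 CPM (668 to 793) and *Jun* 739 (678 to 804), and no other intestinal cluster came above 509 and 307. *Jun* was thus 5.74-fold higher in the highest than in the lowest intestinal cluster. *Junb*, at 2758 CPM, overlapped cluster 5 (2692), and *Fosl2* was highest in that cluster, led by *Gzma*, *Emb* and *Ramp3*, at 190.2 CPM (155 to 231) against 68.5 to 130 in the others (129.6 in cluster 1). *Fosb* (190.4 CPM) and *Jund* (1514) were highest in cluster 3, led by *Lag3*, *Ccl5*, *Maf* and *Dusp2*, but neither stood apart from cluster 4 (162 and 1370.2). No single cluster therefore ordered all 6 genes except the lowest.

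Among splenic clusters, cluster 2, led by *Pdcd4*, *Tcf7*, *Klf2* and *Ypel3*, was highest for *Fos*, *Fosb*, *Jun* and *Junb*. *Fos* stood at 232 CPM (204 to 264) and *Jun* at 276 (245 to 309), beyond the intervals of the next cluster, cluster 1 (136 and 149), which *Tnfsf8*, *Malat1* and *Tbc1d4* lead, while *Fosb* overlapped that cluster. These are also the splenic clusters of lowest depth, with a median of 3820.5 and 4257 UMIs per cell. *Fosl2* had another order, being highest at 60.5 CPM (47.8 to 75.6) in cluster 5, led by *Tnfrsf9*, *Tnfrsf4* and *Ctla4*, where *Fos* (52.7) and *Fosb* (2.36, from 3 UMIs) were lowest. All 3 overlapped their neighbour in the order, with *Fosl2* at 49.7 CPM (35.98 to 67.0) in cluster 6, *Fos* at 73.3 (62.5 to 85.5) in cluster 4 and *Fosb* at 3 UMIs in cluster 7 too. *Jund* was highest in cluster 3 (1333 CPM) and overlapped cluster 6 (1311). Cluster 4, led by *Hmgb2* and *Stmn1* and the deepest at a median of 9538 UMIs, was lowest for *Jun* (59.8), *Jund* (843) and the sum (1712). Only the sum stood apart there, as *Jun* overlapped cluster 6 (75.1) and *Jund* overlapped cluster 2 (934). The Ccl5-high cluster 6 came after clusters 2 and 1 for *Fos* (113 CPM) and *Junb* (857) and overlapped the next lower cluster for both.

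**Figure D3:**
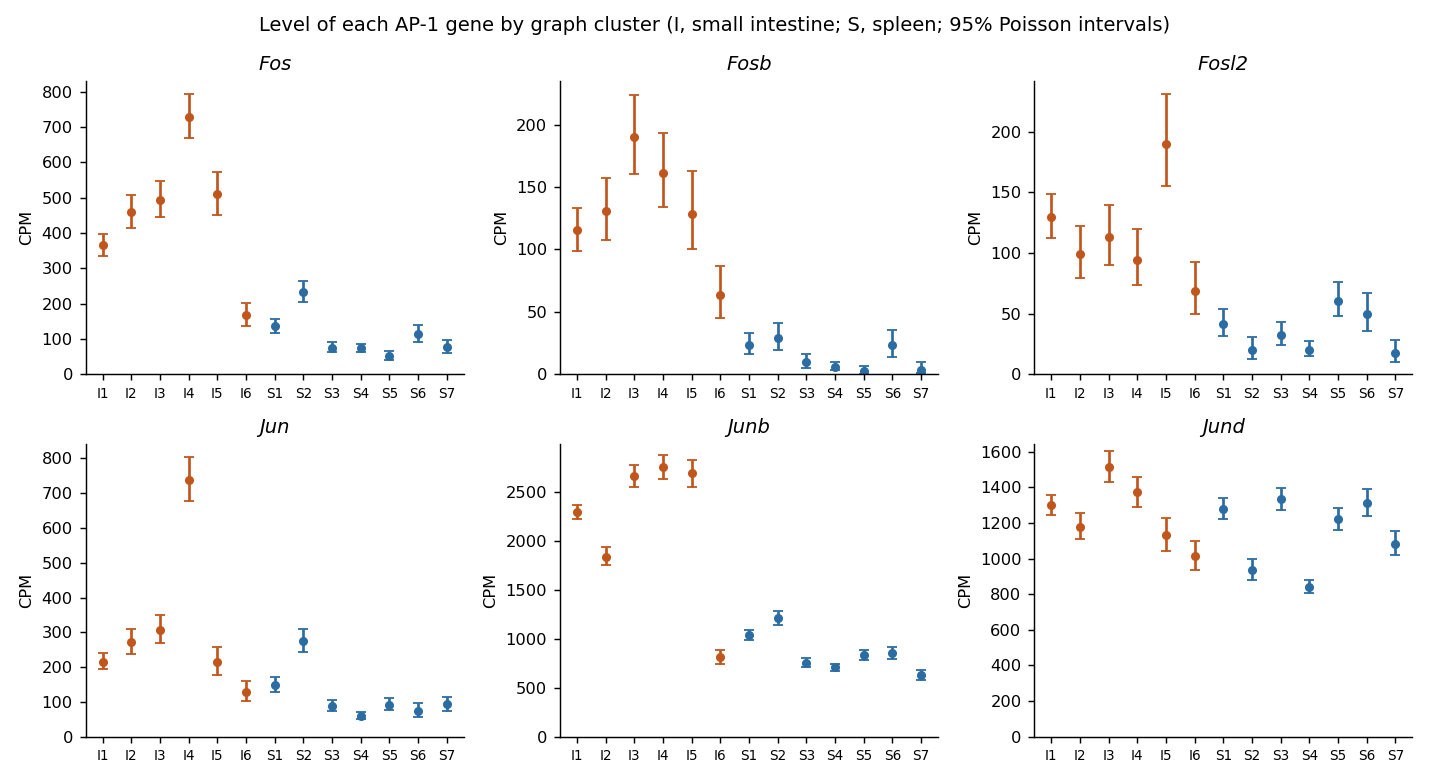
Level of each AP-1 gene in CPM (vertical axes) in the graph clusters of the small intestine (I1 to I6, orange) and the spleen (S1 to S7, blue), with 95% Poisson intervals. Cluster I6 is lowest of the intestinal clusters for all 6 genes, I4 stands apart for *Fos* and *Jun*, and S2 is the highest splenic cluster for *Fos* and *Jun*.

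How many of the 6 genes a cell held was counted at 2000 UMIs. Intestinal cells held a mean of 2.997 of the genes and splenic cells 2.09. At least 4 were found in 361 of 1170 intestinal cells (30.9%, 28.2 to 33.6) and in 105 of 1446 splenic cells (7.26%, 5.98 to 8.72). A Jun family gene was found in 99.1% and 96.1% of cells and a Fos family gene in 63.1% and 24.6%. Both together were found in 62.6% and 23.9%, close to the Fos family shares, since nearly all cells held a Jun family gene. These are shares of cells with detected RNA at this depth, and protein dimers were not measured. By state, at least 4 genes were found in 29.6% of Ccl5-high (26.8 to 32.4) and 45.7% of Ccl5-low cells (35.4 to 56.3) of the small intestine, the latter nearly all of cluster 4, and in 8.18% (4.92 to 12.6) and 7.10% (5.72 to 8.68) of those of the spleen.

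Pairs of genes were then set against the share expected if each were placed in cells independently. *Fos* and *Jun* met in 214 intestinal cells (18.3%) where 15.0% was expected, a ratio of 1.22 (1.07 to 1.37), and in 74 splenic cells (5.12%) where 3.50% was expected, a ratio of 1.46 (1.16 to 1.83). *Fos* and *Fosb* met in 142 intestinal cells (1.32 times the expected share, 1.12 to 1.54) and in 24 splenic cells (3.12 times, 2.003 to 4.62). In the small intestine *Fosb* and *Jun* also met more often than expected (1.28, 1.05 to 1.55), and in the spleen that ratio was 1.71 (0.957 to 2.80) at this depth, 2.18 (1.42 to 3.21) in cells thinned to 3000 UMIs and 1.47 (1.07 to 1.95) without thinning. Whether the ratios differ between the tissues was not tested. The other 12 of 15 intestinal pairs and 13 splenic pairs had intervals that include 1, and the median ratio over all pairs was 1.03 and 1.09. The interval is that of the observed share, divided by an expected share of the same cells taken as fixed. It was not made for given shares of the 2 genes. An interval that includes 1 therefore does not show that a pair was placed independently. Most of these pairs hold *Junb* or *Jund*, found in 93.5% and 87.9% of the thinned intestinal cells and in 76.2% and 84.4% of the splenic ones. A gene in nearly all cells leaves the ratio little room above 1, so for these pairs it can hardly show co-detection. In the small intestine the Pearson r of such pairs ran from 0.0005 (*Fosl2* and *Jund*) to 0.20 (*Fos* and *Junb*), against 0.20 for *Fos* and *Fosb*. *Fosl2* had no co-detection interval above 1 with any member in either tissue, its ratio with *Fos* being 0.978 for intestinal and 1.19 for splenic cells. Cells of the same library share its depth and its clusters, and these ratios include differences between clusters.

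**Figure D4:**
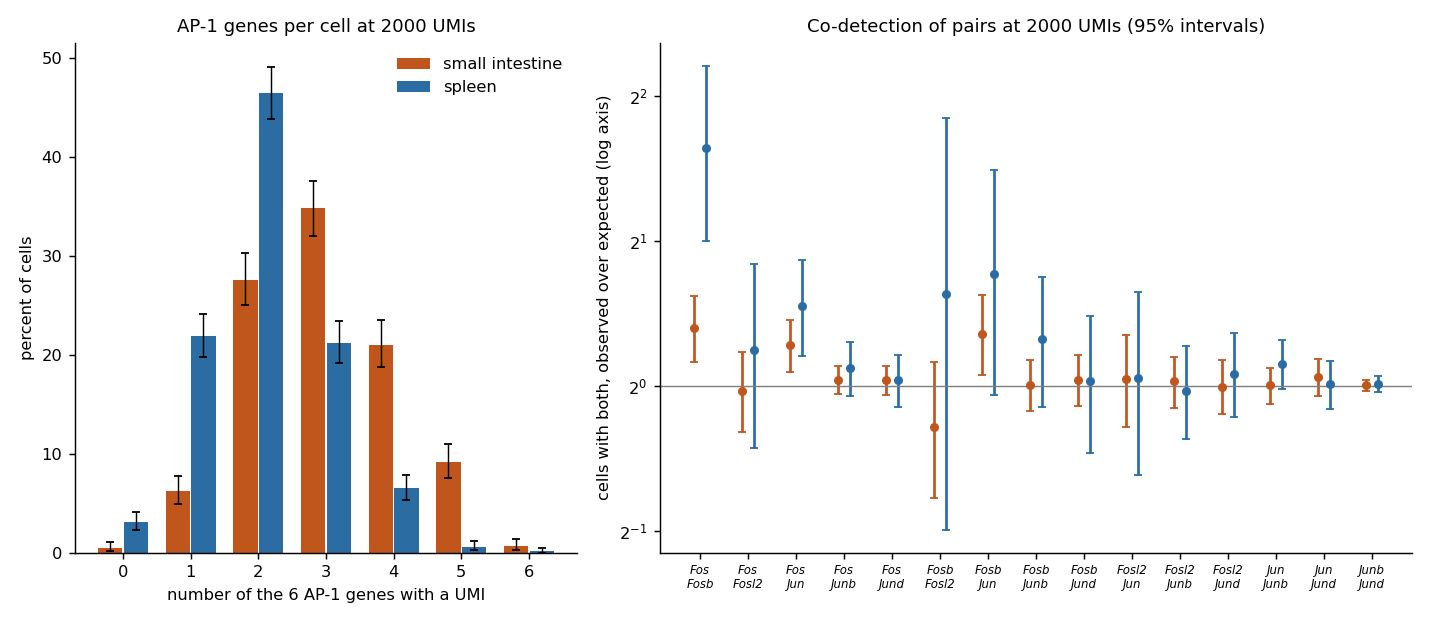
Left, percent of cells (vertical axis) that hold 0 to 6 of the AP-1 genes after thinning to 2000 UMIs, small intestine in orange and spleen in blue, with exact binomial 95% intervals. Right, observed over expected share of cells with both genes of each pair on a log axis; intervals above 1 are seen for *Fos* with *Fosb* and *Fos* with *Jun* in both tissues and for *Fosb* with *Jun* in the small intestine, where the splenic interval (0.957 to 2.80) includes 1 at this depth but not at 3000 UMIs (1.42 to 3.21).

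Gene lists, also chosen with earlier results of these data known, were used to see what else moved with the tissue. Of all 9034 genes compared, 10.4% were at least 2-fold higher in the small intestine and 13.6% at least 2-fold lower. Of 16 other immediate early genes, 9 were at least 2-fold higher in the small intestine and 1 lower (median log2 ratio 1.08, against -0.02 for all genes). *Gadd45b*, a stress-induced gene, stood at 689 CPM against 86.0 (3.002), and *Dusp1*, a phosphatase that switches off MAP kinases, at 567 against 127 (2.16). *Klf2*, a gene of recirculating T cells, stood at 25.8 against 270 CPM (-3.39). Of 9 genes of the T cell receptor response compared, 5 were 2-fold higher and 3 lower, with *Nr4a2* highest (128 against 12.3 CPM, log2 ratio 3.38) and *Myc* lowest (17.9 against 77.4, -2.11). Of 14 MAP kinase route genes compared, 1 was 2-fold higher, which is near the share over all genes, and the median was 0.04. The 1 gene was *Map3k1*, a kinase upstream of JNK (82.6 against 30.5 CPM, 1.44). Among partners and other basic leucine zipper genes, 4 of 9 could be compared. *Batf* (186 against 377 CPM), *Irf4* (19.1 against 75.5) and *Irf8* (75.7 against 686) were at least 2-fold lower in the small intestine, which is the opposite order to *Junb*, whose product they are known to act with, and *Atf4* was at 115 against 72.4.

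Genes of the heat shock list were then compared between tissues. The list holds chaperone and co-chaperone genes only. Immediate early genes, the class given above as induced by warm digestion, were compared apart from it. Of the 16 besides the members, 9 were at least 2-fold higher in the small intestine. Because it leaves out immediate early genes, the heat shock list alone is no measure of digestion effects, which were not tested. None of the 10 compared was at least 2-fold higher in the small intestine (10.4% of all genes were, so 0 of 10 is close to that share) and 3 were lower (13.6%), with a median log2 ratio of -0.59. *Hspa1a*, the inducible chaperone often seen after warm digestion, was at 11.5 against 10.8 CPM (0.09, -0.40 to 0.57), *Hspa8*, its constant relative, at 1329 against 1916, and *Dnajb1*, a co-chaperone, was highest at 89.0 against 57.3 (0.64). Within a tissue the relation differed by measure. In the 41 intestinal cells with an *Hspa1a* or *Hspa1b* UMI, *Fos* was at 988 CPM (839 to 1156) against 427 in the others, *Fosb* at 329 against 125 and *Jun* at 735 against 291. In 38 such splenic cells *Fos* was at 424 CPM (345 to 514) against 93.7, *Fosb* at 116 against 9.75 and *Jun* at 453 against 103. *Junb* was 1.02-fold (0.913 to 1.13) and 1.31-fold (1.15 to 1.48) in these cells, and *Jund* 1.24-fold and 1.04-fold. Such cells were also shallower than the others, with median UMIs of 3301 against 3706 (small intestine) and 4832 against 5418 (spleen). Depth was not matched here. The chaperone-positive cells were spread over all clusters, at 1.20 to 5.31% of an intestinal and 0.763 to 4.07% of a splenic cluster. They are few, and without them the log2 tissue ratio was 2.19 (2.07 to 2.30) for *Fos*, 3.68 (3.35 to 4.02) for *Fosb* and 1.501 (1.38 to 1.62) for *Jun*, against 2.12, 3.38 and 1.45 in all cells.

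Over the summed heat shock list, the 6 genes were at 4319.8 CPM (4198 to 4444) in the 320 intestinal cells lowest in that list and 4650.2 (4537 to 4765) in the 320 highest, and at 2489 (2414 to 2565) and 1985 (1936 to 2036) in the 368 lowest and 367 highest splenic cells. *Fos* did not follow it in the small intestine (459.8 and 466 CPM) and was lower with it in the spleen (145 and 76.5). These splenic cells also differ in depth, with medians of 4140.0 and 7760.0 UMIs. With the cells highest in the list left out of both tissues, the log2 tissue ratio was 1.91 for *Fos*, 3.11 for *Fosb*, 1.26 for *Jun* and 1.23 for *Junb*. The handling of the tissues cannot be told apart from the tissue itself, as each was prepared once.

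**Figure D5:**
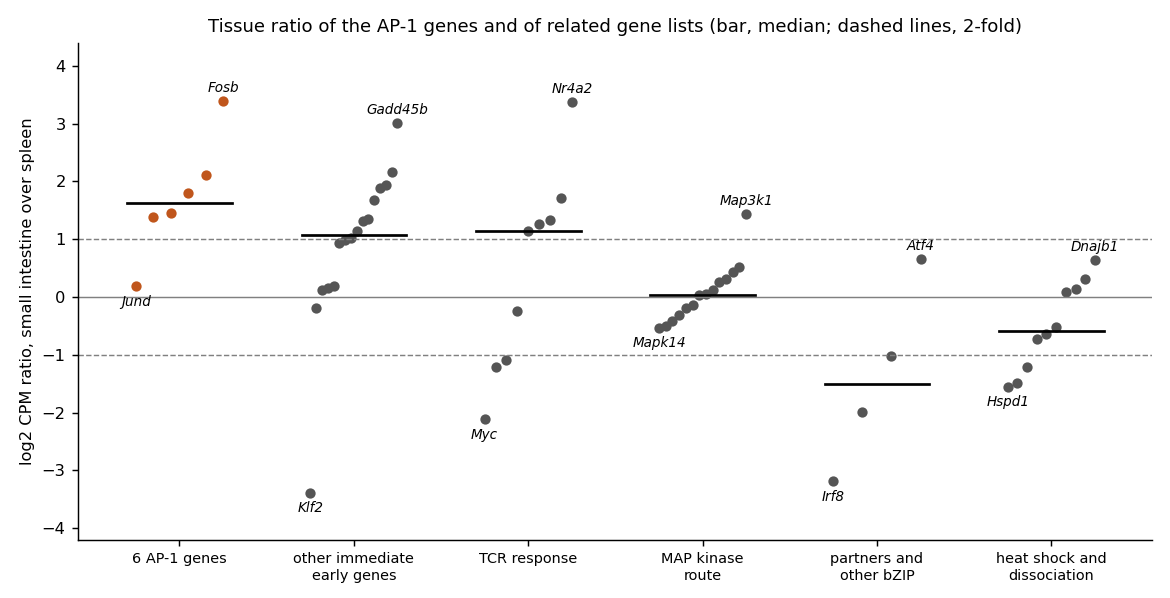
Log2 ratio of CPM, small intestine over spleen (vertical axis), for the 6 AP-1 genes (orange) and the compared genes of 5 related lists (grey), each point 1 gene, with the median of each list as a bar and 2-fold as dashed lines. The AP-1 and other immediate early genes lie mostly above 0 (medians 1.62 and 1.08) and the heat shock genes mostly below (-0.59).

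Over single cells thinned to 2000 UMIs, the genes whose level was most like that of the 6 summed were *Dusp1* (Pearson r = 0.31), *Btg1* (0.30), *Gadd45b* (0.28), *Nfkbia* (0.27) and *Ubb* (0.25) in the small intestine, out of 4385 genes and 1170 cells. In the spleen they were *Malat1* (0.26), *Btg1* (0.20), *Socs3* (0.17), *Arid5a* (0.14) and *Rps27* (0.14), out of 4361 genes and 1446 cells. Cells of a library share its depth and clusters, and correlations of this size are given as a description. Each member had its own nearest genes, such as *Dusp1* and *Ubb* for *Fos*, *Tmem176b* and *Gpr183* for *Jun* and *Btg1* and *Nfkbia* for *Junb* in the small intestine, with r between 0.17 and 0.29. In that tissue the nearest were *Nt5e* and *Dusp1* for *Fosb*, *Sec23b* and *Obfc1* for *Fosl2*, and *Gadd45b* and *Il18r1* for *Jund*, with r from 0.11 to 0.13. The splenic pairs were *Malat1* and *Btg2* for *Fos*, *Mrpl24* and *Malat1* for *Fosb*, *Sdf4* and *Vps37b* for *Fosl2*, *Malat1* and *Rps14* for *Jun*, *Btg1* and *Malat1* for *Junb*, and *Malat1* and *H3f3b* for *Jund*, with r from 0.12 to 0.22. The 6 summed had an r of 0.53 and 0.32 with the other immediate early genes summed, of 0.08 and -0.09 with the heat shock list, of 0.09 and 0.05 with the T cell receptor response list, and of -0.28 and -0.29 with the log2 UMIs of the cell. With *Il10* the r was 0.17 for intestinal and 0.05 for splenic cells.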

How the data were processed

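Single-cell libraries of IL-10-producing CD4+ T cells were analysed, 1 per tissue. The UMI counts were deposited by the authors without normalization, after trimming with Trimmomatic and alignment to Mm10, read filtering and counting with CellRanger, whose versions are not given in the sources used here. The quality filter dropped cells with few UMIs or few genes (over 3 MAD under the median, log scale) or a mitochondrial share over 3 MAD too high, 135 intestinal and 90 splenic cells. G2/M cells by cyclone (1000 iterations; scran 1.30.0) were dropped next, 61 and 179. Scrublet (scanpy 1.11.5) called 4 cells per library as doublets, which were left out only as an alternative. Highly variable genes other than the 6 members, *Ccl5*, the T cell receptor response and the heat shock lists gave 20 principal components and Louvain communities of a neighbour graph (bluster 1.12.0, 10 neighbours), 6 for the intestinal and 7 for the splenic cells.

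Levels are UMIs summed over cells in CPM; 3 UMIs are 0.596 CPM for intestinal and 0.327 for splenic cells. Genes with at least 50 UMIs over both groups were compared, and at least 2-fold counted as different. Shares and co-detection used cells thinned to 2000 UMIs (random seed 1), which left out 108 shallower intestinal cells (102 of them Ccl5-high) and 23 splenic ones (5 Ccl5-high). As nearest genes, those with a mean thinned count of at least 0.05 were ranked by Pearson's r. The genes named are the 6 members, up to 4 of each list (the highest and lowest, and those needed to read a cell type), the 5 genes most like the sum and the 2 most like each member; *Gm11175*, *Junos* and *Prdx2* were named for their overlap and *Fosl1* as the Fos family gene not listed among the 6. *Trac*, *Trbc2* and *Igkc* of the marker lists are not analysed here, and *Map2k7* had no UMI. The members and lists were chosen with earlier results of these data known. The ratios with their intervals were tested on simulated Poisson counts, and the thinning on cells of the spleen. Such counts do not hold UMIs gathered in few cells, so the intervals were not tested for that. The clusters, the co-detection and the correlations had no such test. Python 3.11.15, numpy 2.4.6, scipy 1.17.1, matplotlib 3.10.9 and R 4.3.3 were used.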

Additional observations from a re-analysis of the deposited data

Results flagged for a closer look

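For *Fos*, the log2 ratio of Ccl5-high over Ccl5-low cells was -0.57 among intestinal and 0.51 among splenic cells, on opposite sides of 0 beyond their counting intervals, a difference of -1.09 that was not tested, as each tissue has 1 library. The same held for the sum of the 6 genes, at -0.31 and 0.16, a difference of -0.47 that was not tested either. The splenic ratio of *Fos* turned to -0.41 among cells with 3000 to 5000 UMIs, whose interval includes 0, and the intestinal one to 0.46 within graph cluster 4, which holds 98 of the 100 intestinal Ccl5-low cells. There the summed level was at 0.26, with fewer UMIs per cell on average in the Ccl5-high than in the Ccl5-low cells. Within splenic clusters, *Fos* was higher in the Ccl5-high cells of clusters 1, 3, 4, 5 and 6 and lower in those of clusters 2 and 7. Intervals overlapped except in clusters 1 and 6, and clusters 4 and 5 rest on 9 and 5 *Fos* UMIs in Ccl5-high cells. The Ccl5-high cells also held fewer UMIs each on average in these clusters, and depth was not matched.

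Cells outside the comparisons also held the 6 genes. The cells removed for quality summed to 3428 CPM in the small intestine (135 cells) and 2071 in the spleen (90 cells), and the G2/M cells to 3748 (61 cells) and 2159 (179 cells).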

How the results depend on the processing

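The values below are log2 ratios of the summed level of the 6 genes unless a gene is named. Small intestine over spleen was 1.01, and 0.91 with pooled size factors, 0.87 with mitochondrial and ribosomal protein genes out of the total, 0.96 as a mean over cells, 0.95 after thinning, 0.96 without cells with a *Foxp3* UMI, 1.09 without cells with a *Cd8a* or *Cd8b1* UMI and 0.91 without the cells highest in heat shock genes. Among alternatives chosen after seeing the data it was 0.76 in cells with 3000 to 5000 UMIs, 0.83 within Ccl5-high and 1.31 within Ccl5-low cells, and *Jund* turned to -0.035 within Ccl5-high cells.

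Ccl5-high over Ccl5-low cells of the small intestine was -0.31, and -0.48 as a mean over cells, -0.53 after thinning, -0.19 without *Cd8a* or *Cd8b1* cells, -0.42 without the cells highest in heat shock genes, -0.44 in cells with 3000 to 5000 UMIs, -0.55 and -0.37 with a *Ccl5* limit of 5 and 20, and -0.47 by graph cluster. It turned to 0.16 with at least 1 *Ccl5* UMI as the limit, and to 0.13 against cells with no *Ccl5* UMI, a choice made after seeing the data; both leave 6 intestinal cells as Ccl5-low, and *Fos* was then at 2.40 and 2.34. It also turned to 0.26 within graph cluster 4 (86 Ccl5-high and 98 Ccl5-low cells, chosen after seeing the data), as did *Fos* to 0.46, *Jun* to 0.33 and *Junb* to 0.28. Depth was not matched within that cluster, where the Ccl5-high cells were the shallower on average. In the spleen the ratio was 0.16, and 0.076 without mitochondrial and ribosomal protein genes, 0.083 without the cells highest in heat shock genes and -0.052 with at least 1 *Ccl5* UMI, where *Jund* was at -0.019. Splenic *Fos* and *Fosb* turned to -0.41 and -0.37 in cells with 3000 to 5000 UMIs. *Fos* and *Fosb* met at 0.957 times the expected share in the 94 thinned Ccl5-low cells of the small intestine. Of 493 values under alternatives, 14 were reversed, 94 others left the counting interval of the main value and 385 lay within it. For the summed level and the co-detection of *Fos* with *Jun*, 4 were reversed, 20 others left it and 35 lay within it. A value was counted as reversed only where the main interval excluded 0, or 1 for co-detection. Other changes of direction are among the rest, and splenic *Junb* by state kept its sign in only 9 of 17 alternatives. *Jun* in the small intestine was below 0 by state in 17 of 18, between -1.68 and -0.74, the other being that within cluster 4. The causes were not tested. No paired analysis was possible because each tissue has 1 library and no result comes from a test over samples, and for the same reason no replicate could be left out. *Fosb*, with 115 splenic UMIs, is limited most by depth.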
